A study of Mus musculus with 4 samples.

Results

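The genes described here are the cytochrome P450 enzymes of families 1 to 4 of the mouse, chosen by symbol: Cyp, a family number from 1 to 4, a subfamily letter and a gene number. Cyp2f2 was left out by the rule. The rule selected 74 of the 31053 genes in the count matrix. The values are UMI counts (unique molecular identifiers, each standing for 1 captured transcript) from single cells in droplets, prepared with collagenase I, dispase and lysis of red blood cells. All fetuses were labelled Cyp27a1-/- and all cells lung. The 4 groups were fetuses labelled E14.5 of a Cyp27a1+/- mother, E14.5 of a Cyp27a1-/- mother, E18.5 of a Cyp27a1+/- mother and E18.5 of a Cyp27a1-/- mother. They are called the heterozygous mother and null mother libraries of each age, and paired values below give the heterozygous mother first. The comparison asks what the mother's genotype does to fetuses all labelled null for Cyp27a1, which encodes the mitochondrial P450 sterol 27-hydroxylase. Each group was 1 library, the number of fetuses or litters in a library is not given in the sources used here, and no test between groups was possible. Every interval below is exact, at 95%, and covers counting error only. The library name of the E18.5 heterozygous mother group carries a wild-type tag, and its genotype label was used.

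Cytochrome P450 enzymes are haem proteins of the endoplasmic reticulum that insert oxygen into fats, steroids, drugs and toxins, with electrons from the reductase Por. In liver, families 1 to 3 are best known for clearing foreign compounds and steroids, and family 4 for hydroxylating the ends of fatty acids and leukotrienes. Many of their genes lie in tandem clusters, and many are controlled by the nuclear receptors PXR (Nr1i2), CAR (Nr1i3) and PPAR alpha (Ppara). Liver P450 genes are mostly low before birth and are switched on around it.

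The E14.5 libraries held 4957 and 4843 cells (heterozygous and null mother) and the E18.5 libraries 17034 and 16517 cells, with median depths of 3697 to 6387 UMIs per cell. The libraries labelled E18.5 nearly lacked the genes of lung epithelium. Levels are given in CPM, the UMIs of a gene per 1e+06 UMIs of all genes. The surfactant gene Sftpc stood at 280 and 1444 CPM at E14.5, against 1.53 and 0.669 CPM in the E18.5 libraries. UMIs of Nkx2-1, which encodes a defining regulator of lung epithelial cells, numbered 1935 and 2804 at E14.5, and 4 and 1 later. The liver gene Alb (albumin) went the other way, with 0.574 and 0.469 CPM at E14.5 against 2905 and 8344 CPM in the E18.5 libraries. Values from the libraries labelled E18.5 therefore describe cells with liver genes, not lung, and age and tissue cannot be told apart. Pairs of libraries shared 93 to 164 cell barcodes. Male cells (UMIs of Y-linked genes, none of Xist) and female cells (the reverse) numbered 5395 and 22 in the heterozygous mother library labelled E18.5, and 3875 and 4411 in that of the null mother. At E14.5 there were 819 male and 1507 female cells for the heterozygous mother, and 726 and 2052 for the null mother. Cyp27a1 itself was found in all 4 libraries, at 18.7 and 19.7 CPM at E14.5 and 38.5 and 37.3 CPM in the E18.5 libraries. Which part of the gene is deleted is not given in the sources used here, so this count checks nothing about the genotype.

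Of the 74 P450 genes, 61 had at least 1 UMI and 13 had none in any library. At E14.5, 28 genes were detected, against 59 in the E18.5 libraries, and 33 genes were detected only in the latter. 17 genes were detected in all 4 libraries, and 34 had at least 50 UMIs in at least 1 library. The other 27 detected genes had 1 to 49 UMIs. Of the 34 genes, 16 were at 0 in both E14.5 libraries, where a count of 0 allows up to 0.0638 CPM (heterozygous mother) and 0.0563 CPM (null mother). The summed level was 34.3 CPM (32.7 to 36.1) and 41.7 CPM (40.0 to 43.5) at E14.5. It was 137 CPM (135 to 139) for the heterozygous mother and 359 CPM (355 to 362) for the null mother in the E18.5 libraries. Chromium libraries count transcript ends, so CPM was not divided by gene length.

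**Figure D1:**
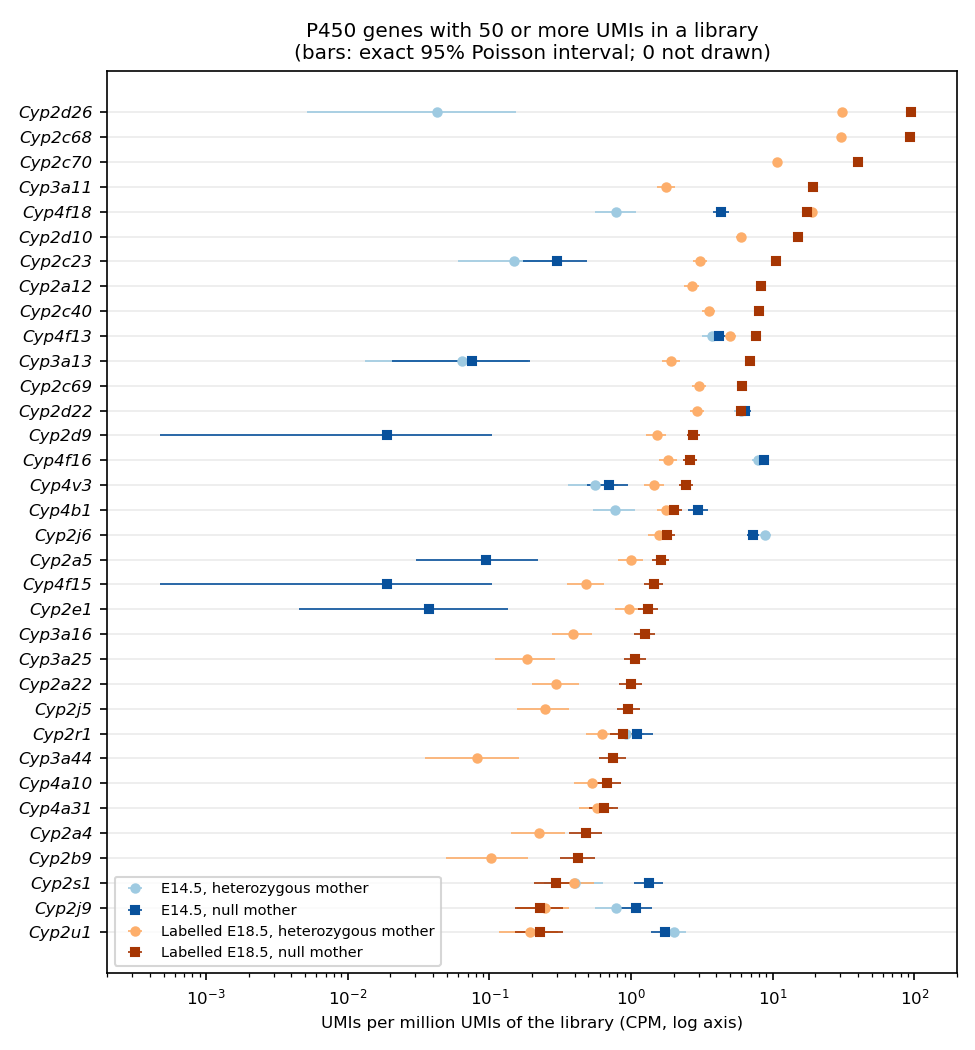
CPM (log axis) of the 34 P450 genes with at least 50 UMIs in at least 1 library, with 1 point per library and exact 95% Poisson intervals. Libraries with no UMI of a gene have no point. Cyp2d26 and Cyp2c68 lie near 31 CPM for the heterozygous mother and above 92 CPM for the null mother in the libraries labelled E18.5, and Cyp2j6 and Cyp4f16 lie highest at E14.5.

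Most of the 74 genes lie in tandem clusters (GENCODE M21 on GRCm38). The 15 Cyp2c genes lie on chromosome 19, the 8 Cyp2d genes on chromosome 15, the 7 Cyp3a genes on chromosome 5, and the 8 Cyp2j and 5 Cyp4a genes on chromosome 4. Of the Cyp4f genes 8 share a cluster on chromosome 17, and Cyp4f18 lies apart on chromosome 8. Cyp3a13 (chr5:137892932-137921619) and Cyp2c23 (chr19:44005022-44029208) lie megabases away from the other genes of their subfamilies on the same chromosomes. The genes on which the results turn are all protein-coding and on the minus strand: Cyp3a11 at chr5:145854426-145879964, Cyp2d26 at chr15:82790101-82794294 and Cyp2c68 at chr19:39688834-39741054 in the hepatocyte-like cells, and Cyp4b1 at chr4:115624725-115647723, Cyp4f18 at chr8:71988482-72009626 and Cyp2s1 at chr7:25802475-25816913 in other classes. The 13 genes without a UMI came from Cyp2b, Cyp2c, Cyp2d, Cyp2g, Cyp2j, Cyp2t, Cyp4a and Cyp4f, so no subfamily of more than 1 gene was wholly undetected. Cyp2j12 and Cyp2j8 were the 2 genes found only at E14.5.

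The genes with the highest levels in both E14.5 libraries were Cyp2j6, which oxidizes arachidonic acid, at 8.87 and 7.28 CPM, and Cyp4f16, of the fatty acid hydroxylase subfamily Cyp4f, at 7.89 and 8.63 CPM. Cyp2d22 followed at 6.0 and 6.36 CPM. Of the other genes that were within 1.5-fold there, Cyp4f13 was at 3.70 and 4.17 CPM. Cyp2u1, a fatty acid hydroxylase, was at 2.00 and 1.73 CPM, Cyp2r1, a vitamin D hydroxylase, at 0.915 and 1.11 CPM, and Cyp2j9 at 0.787 and 1.09 CPM. All 7 of these differed by less than 1.5-fold between the E14.5 libraries. In the E18.5 libraries Cyp2j6 was at 1.56 and 1.80 CPM, Cyp2u1 at 0.194 and 0.229 CPM, Cyp2j9 at 0.245 and 0.229 CPM and Cyp2r1 at 0.623 and 0.872 CPM. The genes that led in both of those libraries were Cyp2d26 (30.8 and 94.7 CPM) and Cyp2c68 (30.5 and 92.6 CPM). Next came Cyp4f18 with the heterozygous mother (19.0 and 17.3 CPM) and Cyp2c70 with the null mother (10.7 and 39.7 CPM). At E14.5 Cyp2d26, Cyp2c68 and Cyp2c70 had 2, 0 and 0 UMIs with the heterozygous mother and none with the null mother. Cyp4f18 had 37 and 231 UMIs at E14.5.

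With the null mother at E14.5, the summed level was 1.21 times (1.14 to 1.30) that with the heterozygous mother, over all cells. A gene counted as measured where the library with its higher CPM held 50 UMIs or more. Of 10 P450 genes measured, 3 were at least 1.5-fold higher and 0 lower, where 8.24% of all measured genes were higher and 3.46% lower. The 3 were Cyp4b1, Cyp2s1 and Cyp4f18, described by cell class below. In the E18.5 libraries the summed level was 2.62 times (2.57 to 2.67) as high with the null mother. There 23 of 31 measured P450 genes were at least 1.5-fold higher and 0 lower, where 12.1% of all measured genes were higher and 3.6% lower. The share of hepatocyte-like cells moved in the same direction, from 4.24% to 14.4% of cells, and within those cells the summed level had a ratio of 0.988. In summed libraries, fewer cells of a type and less RNA per cell cannot be told apart.

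To separate the cell types, each cell was given the class whose marker list it detected in the largest share, out of 14 lists of 8 to 12 genes. At least 3 markers were required, or 6 of 12 for hepatocyte-like cells, and none of the P450 genes described is a marker. 5 classes at E14.5 and 9 in the E18.5 libraries held at least 50 cells in both libraries. The hepatocyte-like class held 723 and 2381 cells, with a median of 11 of its 12 markers per cell in both libraries. It held 5.77% and 18.6% of all UMIs but 72.4% (71.7 to 73.2) and 88.0% (87.7 to 88.3) of all P450 UMIs. Of its cells, 449 of 723 and 1706 of 2381 also reached the minimum of another list, and the 10 neutrophil markers summed to 7960 and 11348 CPM in the class. The part of such cells in the results was not tested, and no doublet caller was run. The values in cells that reached no other list are given where they end a call.

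**Figure D2:**
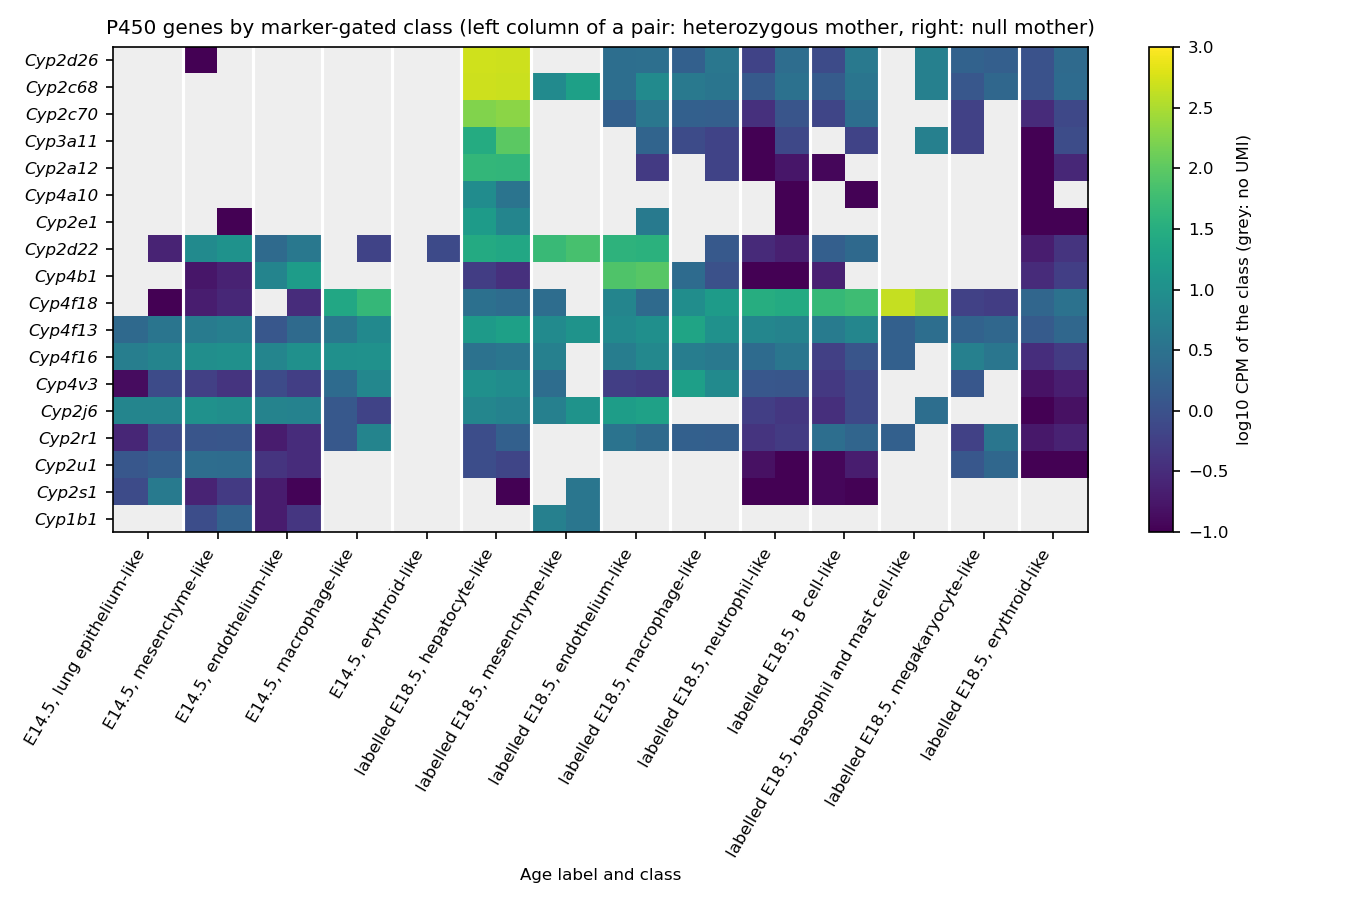
Levels of 18 P450 genes (log10 CPM by colour, grey where no UMI was found) in the marker-gated classes, with the heterozygous mother in the left and the null mother in the right column of each pair. Cyp2d26, Cyp2c68 and Cyp2c70 are brightest in hepatocyte-like cells, Cyp4b1 in endothelium-like cells and Cyp4f18 in basophil and mast cell-like cells.

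Hepatocyte-like cells carried P450 RNA at nearly the same summed level in both libraries: 1720 CPM (1686 to 1755) for the heterozygous mother and 1699 CPM (1682 to 1717) for the null mother, a ratio of 0.988 (0.966 to 1.01). Per cell the median was 1370 and 1337 CPM, and 91.8% and 93.7% of the cells had at least 1 P450 UMI. After each cell was thinned to 3000 UMIs, which left out 181 and 465 cells, these shares were 93.3% and 92.7%. Neutrophil-like cells had a P450 UMI in 21.7% and 26.6% of cells, thinned 11.3% and 13.2%, and Cyp4f18 supplied 1016 of their 1541 and 1121 of their 2034 P450 UMIs. Hepatocyte-like cells held UMIs of 52 of the 74 genes, and 23 were measured. Of those 23, 3 were at least 1.5-fold higher with the null mother, 6 were lower and 14 were neither. Over all 8968 genes measured in the class, 9.99% were higher and 2.16% lower. The median log2 ratio was -0.04 over the P450 genes and 0.16 over all measured genes. The 50-UMI minimum stood at 8.85 CPM for the heterozygous mother and at 2.28 CPM for the null mother, so a low gene could be measured more easily when it was higher with the null mother.

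Subfamilies Cyp2c and Cyp2d, whose enzymes oxidize drugs, steroids and fatty acids, made up most of the P450 RNA of hepatocyte-like cells. The Cyp2c genes held 48.2% and 47.5% of P450 UMIs and summed to 829 and 808 CPM, with a ratio of 0.974 (0.943 to 1.01). The Cyp2d genes held 38.2% and 35.8% and summed to 658 and 609 CPM, with a ratio of 0.926 (0.893 to 0.961). Cyp2d26 was at 505 CPM (487 to 524) and 491 CPM (481 to 500), and Cyp2c68 at 491 CPM (473 to 510) and 475 CPM (466 to 485). Both genes were nearly equal in the 2 libraries. At a thinned depth, Cyp2d26 had a UMI in 62.6% and 61.2% of hepatocyte-like cells, and in 0.227% and 0.809% of neutrophil-like cells. Cyp2c70, which hydroxylates bile acids into muricholic acids in mice, was at 174 CPM (163 to 185) and 205 CPM (199 to 211), 1.18 times (1.10 to 1.26) as high with the null mother. Cyp2c23, an arachidonic acid epoxygenase, was at 49.2 and 54.2 CPM, and Cyp2d22 at 27.4 and 25.2 CPM. Cyp2d10 was at 99.3 CPM (91.2 to 108) and 78.4 CPM (74.8 to 82.2), with a ratio of 0.790 (0.718 to 0.871). Cyp2c40 was at 58.0 and 39.6 CPM, with a ratio of 0.682 (0.600 to 0.776), just inside 1.5-fold. None of these 7 genes passed 1.5-fold.

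**Figure D3:**
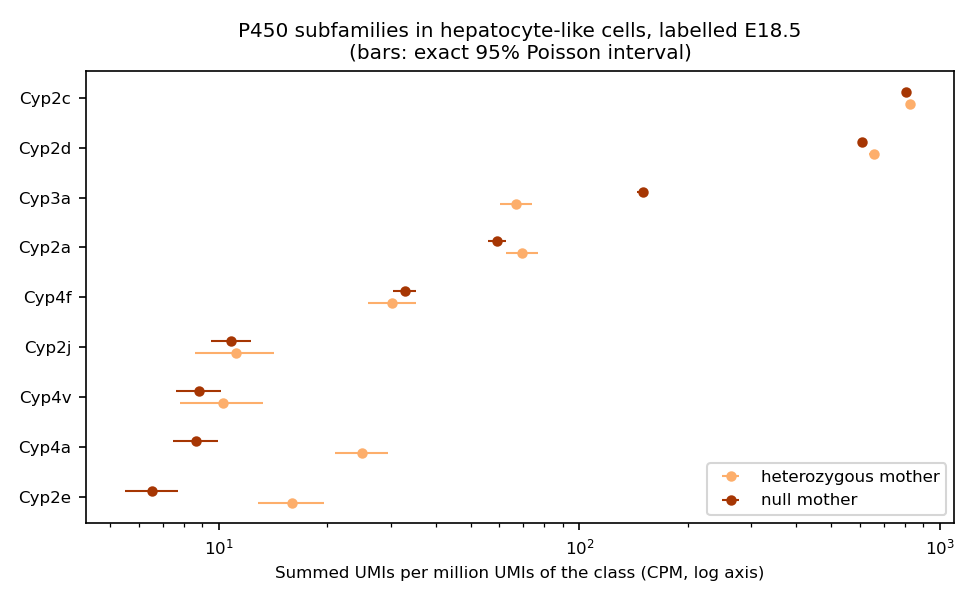
Summed CPM (log axis) of the P450 subfamilies with at least 100 UMIs over both libraries in hepatocyte-like cells, libraries labelled E18.5, with exact 95% Poisson intervals. The points of both libraries lie close together for Cyp2c, Cyp2d, Cyp4f and Cyp2j, while Cyp3a is higher with the null mother (66.9 and 150 CPM) and Cyp4a and Cyp2e are lower.

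Several of these genes have near copies among which reads could be split. Of the stretches of 50 bases in the last 500 bases of their transcripts, 51.2% for Cyp2c68, 62.4% for Cyp2c40 and 38.4% for Cyp2c69 occur in a transcript of another P450 gene described here, and 25.7% for Cyp2d26. For Cyp2c70, Cyp3a11, Cyp3a13 and Cyp3a44 no such stretch is shared. The split of counts among Cyp2c40, Cyp2c67, Cyp2c68 and Cyp2c69 is therefore uncertain. For Cyp2d10 and Cyp2d9 the shared part is 30.2% and 24.3%, so the split among Cyp2d genes is uncertain too.

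All 3 P450 genes that were at least 1.5-fold higher with the null mother in hepatocyte-like cells belonged to Cyp3a, which summed to 66.9 and 150 CPM, with a ratio of 2.24 (2.02 to 2.50). Cyp3a11, the main PXR-inducible drug and steroid oxidase of mouse liver, had 162 UMIs for the heterozygous mother and 2148 for the null mother. Its level was 28.7 CPM (24.4 to 33.4) and 98.0 CPM (93.9 to 102), with a ratio of 3.42 (2.91 to 4.04). At 3000 UMIs per cell it was found in 7.45% and 20.1% of hepatocyte-like cells, unthinned 13.1% and 33.0%. In neutrophil-like cells, with median depths of 4806 and 6560 UMIs against 6064 and 7041, it was found unthinned in 0.0565% and 0.566% of cells. The cells that held it had a mean of 1.71 and 2.74 UMIs, and the top 5 cells held 17.3% and 3.54% of its UMIs. In male hepatocyte-like cells (311 and 715 cells) the level was 30.4 CPM (24.8 to 36.9) and 103 CPM (96.1 to 110), a ratio of 3.37, and in the 500 female cells of the null mother library it was 97.6 CPM. Over the 10 alternatives for a single gene, its ratio ran from 2.46 in cells that reached no other list to 4.34 in cells of 1000 genes or more with less than 10% of UMIs mitochondrial.

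The other Cyp3a genes did not share one ratio. Cyp3a44 had 8 and 85 UMIs, 1.42 CPM (0.611 to 2.79) and 3.88 CPM (3.10 to 4.80), with a ratio of 2.74 (1.33 to 6.55). Cyp3a25 had 18 and 121 UMIs, 3.19 and 5.52 CPM, with a ratio of 1.73 (1.05 to 3.02). Its ratio was 1.15 as a mean over cells and 1.47 in male cells, which ends its call. Cyp3a13 was at 27.1 CPM (23.0 to 31.7) and 35.7 CPM (33.3 to 38.3), with a ratio of 1.32 (1.11 to 1.58). Cyp3a16, known as a fetal form of the subfamily, had 37 and 143 UMIs, under the minimum by the rule of the library with the higher CPM. Its level was 6.55 and 6.52 CPM, with a ratio of 0.997 (0.690 to 1.47), and 15.5% of its stretches of 50 bases are shared, mostly with Cyp3a11. Cyp3a16 was thus nearly level while Cyp3a11, which lies in the same cluster on chromosome 5, was 3.42 times as high. Cyp3a57 and Cyp3a59 had 4 and 3 UMIs with the null mother and none with the heterozygous mother.

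The promoters of these 3 neighbours and of the genes with the highest levels are shown to let their sequences be set beside their levels. The windows are RefSeq's, on GRCm38.p6, from 250 bases before to 50 after the annotated start, read 5′ to 3′ on the gene's strand. Capitals mark exact matches, on either strand, to TATAAA (the letters of a TATA box, marked at any position) and CAAAGTCCA (a motif bound by HNF4A, a liver transcription factor). A marked TATAAA is thus not shown to be the TATA box of its gene. These motifs and genes were chosen after the values were seen.
Cyp3a11, chr5:145879805-145880104, minus strand: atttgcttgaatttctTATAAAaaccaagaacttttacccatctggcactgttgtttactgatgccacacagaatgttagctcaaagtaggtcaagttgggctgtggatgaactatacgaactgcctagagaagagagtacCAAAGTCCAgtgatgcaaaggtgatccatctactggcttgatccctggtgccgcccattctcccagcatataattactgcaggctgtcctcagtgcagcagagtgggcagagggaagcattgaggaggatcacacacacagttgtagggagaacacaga
Cyp3a16, chr5:145469674-145469973, minus strand: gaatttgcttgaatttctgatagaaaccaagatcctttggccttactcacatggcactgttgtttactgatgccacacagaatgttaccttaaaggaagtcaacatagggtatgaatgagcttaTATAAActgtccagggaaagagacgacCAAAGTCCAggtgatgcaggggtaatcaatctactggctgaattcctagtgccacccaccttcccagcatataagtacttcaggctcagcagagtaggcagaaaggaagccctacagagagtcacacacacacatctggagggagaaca
Cyp3a44, chr5:145805825-145806124, minus strand: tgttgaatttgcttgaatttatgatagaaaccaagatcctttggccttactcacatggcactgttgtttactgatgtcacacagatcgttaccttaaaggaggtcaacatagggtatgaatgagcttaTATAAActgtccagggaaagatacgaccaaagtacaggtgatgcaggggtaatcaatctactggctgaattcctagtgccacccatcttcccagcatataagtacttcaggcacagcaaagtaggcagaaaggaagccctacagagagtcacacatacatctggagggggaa
Cyp2c68, chr19:39741052-39741351, minus strand: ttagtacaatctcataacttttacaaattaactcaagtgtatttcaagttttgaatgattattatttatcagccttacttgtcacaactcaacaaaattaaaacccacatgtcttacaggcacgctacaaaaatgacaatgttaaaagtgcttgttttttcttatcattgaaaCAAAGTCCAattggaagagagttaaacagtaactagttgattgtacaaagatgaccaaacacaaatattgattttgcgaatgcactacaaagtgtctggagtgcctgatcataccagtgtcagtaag
Cyp2d26, chr15:82794196-82794495, minus strand: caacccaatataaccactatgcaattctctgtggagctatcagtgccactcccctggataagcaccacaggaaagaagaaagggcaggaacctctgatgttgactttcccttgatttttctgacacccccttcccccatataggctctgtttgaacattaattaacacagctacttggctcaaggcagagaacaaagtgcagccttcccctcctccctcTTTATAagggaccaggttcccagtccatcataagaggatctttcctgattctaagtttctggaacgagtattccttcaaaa
The windows of Cyp3a16 and Cyp3a44 are 93.9% identical without gaps when shifted by 4 bases, and their levels in hepatocyte-like cells had ratios of 0.997 and 2.74. The intervals of these ratios overlap (0.690 to 1.47 and 1.33 to 6.55), with 37 and 8 UMIs for the heterozygous mother. The window of Cyp3a11 holds CAAAGTCCA at -109 and that of Cyp3a16 at -99, in bases from the start site to the motif's first base. That of Cyp3a44 holds no exact match. Cyp2c68 holds CAAAGTCCA at -77, and Cyp2d26 holds TATAAA on the opposite strand at -31. The marked TATAAA lies farther from the start at -234 in Cyp3a11, -126 in Cyp3a16 and -122 in Cyp3a44.

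Of the 74 genes, 61 had a window. Among them 8 (13.1%) hold CAAAGTCCA, against 0.555% of the windows of all 27025 genes, and 27 (44.3%) hold TATAAA, against 15.7%. Of the 19 windows of genes measured in hepatocyte-like cells, 5 hold CAAAGTCCA and 13 hold TATAAA. TTNNGCAA, a C/EBP motif, is in 15 windows (24.6%, against 12.2%), and GCGTG, the core bound by the Ah receptor, in 13 (21.3%, against 35.2%). The spaced nuclear receptor motifs known as DR1, DR3 and ER6 and the palindromic HNF1 motif had no exact match in the 61 windows. Over all 27025 genes these exact letters are in 13 (DR1), 0 (DR3), 0 (ER6) and 3 (HNF1). Matches this rare cannot set the P450 windows apart from others. All motifs were searched on both strands. Windows of tandem copies are related by descent, so they are not independent cases. A match is a description of letters, not a measured binding site.

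The 6 genes that were at least 1.5-fold lower with the null mother in hepatocyte-like cells belonged to Cyp4a, Cyp2e, Cyp2a, Cyp2d and Cyp2c. Cyp4a10 and Cyp4a31 are fatty acid hydroxylases, and Cyp4a10 is a known PPAR alpha target. Cyp4a10 had 50 and 77 UMIs, 8.85 CPM (6.57 to 11.7) and 3.51 CPM (2.77 to 4.39), with a ratio of 0.397 (0.275 to 0.579). Cyp4a31 had 53 and 72 UMIs, 9.38 and 3.29 CPM, with a ratio of 0.350 (0.242 to 0.509). Cyp4a14, a close relative below the minimum, had 37 and 39 UMIs, 6.55 and 1.78 CPM, with a ratio of 0.272 (0.169 to 0.438). The subfamily summed to 25 and 8.62 CPM, with a ratio of 0.346 (0.276 to 0.433). The ratios of both measured Cyp4a genes stayed past 1.5-fold under all 10 alternatives, though from as few as 14 and 8 UMIs (Cyp4a31, cells of no other list).

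Cyp2e1, which oxidizes ethanol and small solvents, had 90 and 143 UMIs, 15.9 CPM (12.8 to 19.6) and 6.52 CPM (5.50 to 7.69), with a ratio of 0.410 (0.313 to 0.539). Its UMIs lay in few cells: 30 of 723 and 65 of 2381 cells held it, and the top 5 cells held 57.8% and 37.1% of them. In cells of 1000 genes or more with less than 10% of UMIs mitochondrial its ratio was 0.772, which ends its call, and in male cells 0.230. Cyp2a5, which hydroxylates coumarin and nicotine, was at 16.6 CPM (13.4 to 20.4) and 8.35 CPM (7.18 to 9.65), with a ratio of 0.502 (0.389 to 0.651). Of its stretches of 50 bases 22.9% are shared with Cyp2a4, which had 21 and 56 UMIs and a ratio of 0.688 (0.410 to 1.20). Cyp2a12 stood at 44.1 and 43.0 CPM and Cyp2a22 at 4.95 and 5.20 CPM, so the subfamily held both nearly equal and lower genes. Cyp2d9, a testosterone hydroxylase that is higher in males in adult mice, was at 25.3 CPM (21.3 to 29.8) and 14.3 CPM (12.7 to 16.0), with a ratio of 0.564 (0.462 to 0.693). In male cells alone it was at 26.9 CPM and 12.6 CPM (10.4 to 15.2). In the 500 female cells of the null mother library it was higher than in the male cells, at 18.3 CPM (14.8 to 22.3). Cyp2c69 was at 48.3 and 31.3 CPM, with a ratio of 0.649 (0.563 to 0.749), and its call ended under 3 of 10 alternatives, with ratios of 0.690 in Leiden clusters, 0.777 in cells of 1000 genes or more with less than 10% of UMIs mitochondrial, and 0.671 without the cells of highest depth.

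The remaining measured genes of the class were Cyp2j5 (4.07 and 4.84 CPM), Cyp4v3 (10.3 and 8.81 CPM), Cyp4f16 (3.19 and 3.70 CPM) and Cyp4f13 (15.2 and 18.9 CPM). None passed 1.5-fold. Of the genes with at least 50 UMIs in a whole library, Cyp2j6 (6.90 and 5.84 CPM), Cyp4f15 (7.43 and 7.25 CPM) and Cyp2b9 (1.77 and 2.01 CPM) were below the minimum in the class. When the minimum was set at 50 UMIs over both libraries together, a choice made after seeing the data, 3 genes were higher and 8 lower, where 8.99% of all genes so measured were higher and 4.03% lower. The 2 genes added were Cyp4a14 and Cyp2c37, with 32 and 26 UMIs of Cyp2c37 and a ratio of 0.209 (0.120 to 0.363). Cyp1a2, a major adult liver P450 under Ah receptor control, had 0 and 7 UMIs in the class.

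**Figure D4:**
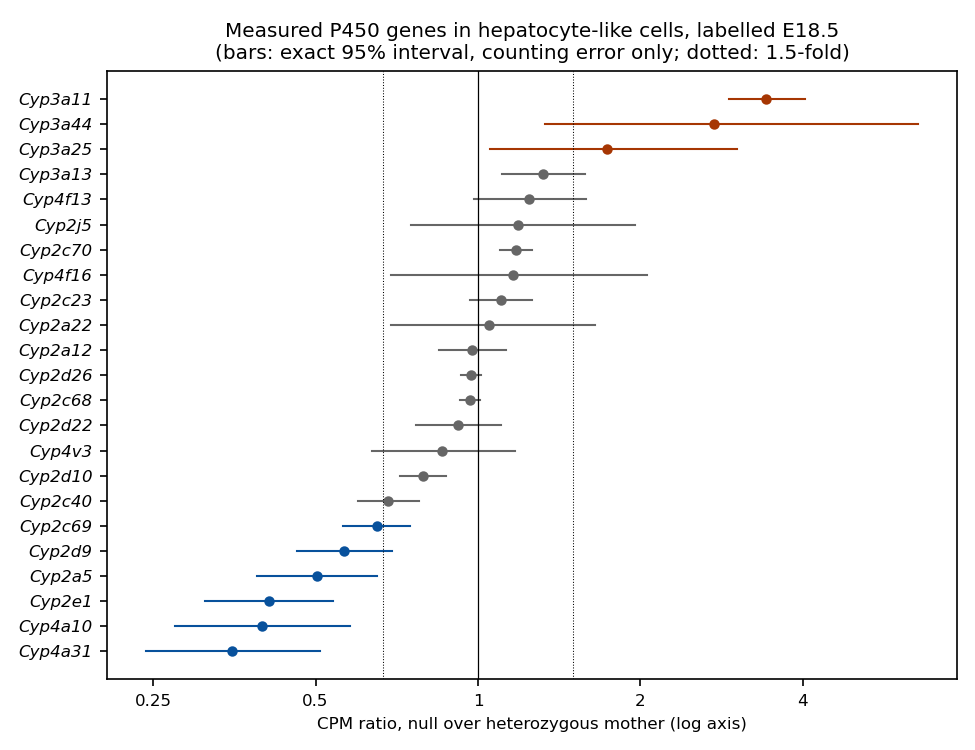
Ratio of CPM, null over heterozygous mother (log axis), of the 23 P450 genes measured in hepatocyte-like cells of the libraries labelled E18.5, with exact 95% intervals for counting error and dotted lines at 1.5-fold. The 3 Cyp3a genes Cyp3a11, Cyp3a44 and Cyp3a25 lie above the upper line, 6 genes lie below the lower line, and Cyp2d26 and Cyp2c68 lie next to 1.

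Partner genes of the P450 system were mostly within 1.5-fold in the same cells. Of the 6 electron donors and haem partners all 6 were measured, 0 higher and 0 lower. The reductase Por was at 129 and 118 CPM. Of 14 receptors and liver factors 12 were measured, 0 higher and 1 lower: Nr1i3, which encodes CAR, at 10.1 and 4.33 CPM, with a ratio of 0.430 (0.306 to 0.608). Nr1i2 (PXR) stood at 18.6 and 13.8 CPM, Ppara at 78.4 and 64.7 CPM and Hnf4a at 66.2 and 64.7 CPM. Of 16 other oxidation and conjugation enzymes 14 were measured and 3 were higher. These were the epoxide hydrolase Ephx1 (5.13 and 9.13 CPM, ratio 1.78) and the glutathione transferases Gstm1 (390 and 625 CPM, ratio 1.60) and Gsta4 (63.5 and 101 CPM, ratio 1.58). The carboxylesterase Ces1c was at 64.6 and 47.1 CPM. Of the P450 genes of other families 6 were measured and 1 was lower, Cyp7a1, the rate-limiting enzyme of bile acid synthesis, at 40.3 and 23.2 CPM, with a ratio of 0.574 (0.490 to 0.675).

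Endothelium-like cells carried Cyp4b1, a fatty acid and xenobiotic hydroxylase known from lung. At E14.5 the class held 150 of its 158 UMIs with the null mother, 94.9% (90.3 to 97.8) against 17.2% of all UMIs. In the E18.5 libraries it held 81.5% and 79.9% of the gene's UMIs against 1.83% and 1.75% of all UMIs. Its level in E14.5 endothelium-like cells was 6.30 CPM (4.28 to 8.94) for the heterozygous mother and 16.4 CPM (13.9 to 19.2) for the null mother, a ratio of 2.60 (1.76 to 3.96). The ratio ran from 1.89 to 3.04 over the 10 alternatives. In the E18.5 libraries the level was 78.8 and 92.2 CPM, with a ratio of 1.17 (0.937 to 1.47), and 1.56 in male cells. Of the 2 genes measured in the class at E14.5 both were at least 1.5-fold higher, where 4.38% of all measured genes were higher and 1.61% lower. The other was Cyp4f16, at 6.5 and 10.3 CPM, with a ratio of 1.58 (1.05 to 2.44) that was 0.847 in male cells, 1.05 as a mean over cells and 1.47 in cells that reached no other list. In the E18.5 class, where 2.8% of all measured genes were higher and 3.65% lower, 0 of 2 measured genes passed. The second was Cyp2d22, at 38.0 CPM (29.5 to 48.2) and 35.7 CPM (28.1 to 44.9). Its level in hepatocyte-like cells was lower, 27.4 CPM (23.3 to 32.1) and 25.2 CPM (23.1 to 27.4). The intervals of both classes overlap with the heterozygous mother and not with the null mother.

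Cyp4f18, which hydroxylates leukotrienes in neutrophils, was the P450 gene with the most UMIs in neutrophil-like, B cell-like and basophil and mast cell-like cells. In the E18.5 libraries, 54.6% and 54.8% of its UMIs lay in neutrophil-like cells and 22.3% and 26.4% in B cell-like cells. Its level was 30.7 CPM (28.8 to 32.6) and 27.9 CPM (26.3 to 29.6) in neutrophil-like cells, and 48.1 CPM (43.6 to 52.9) and 56.4 CPM (51.8 to 61.4) in B cell-like cells. Basophil and mast cell-like cells had the highest level of any class compared, 441 CPM (389 to 497) in 91 cells and 288 CPM (235 to 348) in 62 cells. Their ratio was 0.653 (0.515 to 0.823), the 1 lower gene of 1 measured, where 4.62% of all measured genes were higher and 12.5% lower. It was 0.705 with median-of-ratios scaling and 0.735 with a minimum of 5 markers, which ends the call. The intervals of the neutrophil-like, B cell-like and basophil and mast cell-like levels do not overlap within either library.

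At E14.5 Cyp4f18 had 37 UMIs for the heterozygous mother and 231 for the null mother over all cells, 0.787 and 4.33 CPM, with a ratio of 5.51 (3.88 to 8.02). With the null mother 93 of the 231 UMIs came from 13 basophil and mast cell-like cells, at 280 CPM (226 to 343). With the heterozygous mother 2 such cells held 10 UMIs, at 291 CPM (139 to 534). In macrophage-like cells (63 and 86 cells) the level was 25.2 CPM (15.4 to 39.0) and 45.4 CPM (35.4 to 57.4). The ratio was 1.80 (1.08 to 3.12), the 1 higher gene of 1 measured, where 6.56% of all measured genes were higher and 2.51% lower. It rests on few cells: 6 and 20 cells held the gene, and the top 5 held 95% and 55.7% of its UMIs. The ratio was 0.711 without the deepest cells (past the 95th percentile of UMIs) and 0.803 in male cells, which turns its direction. Of the partner genes 6 were measured in this class and none passed 1.5-fold. Their ratios ran from 0.876 for Cyb5r3, 0.944 for Cyb5a and 0.993 for Nfe2l2 to 1.01 for Tbxas1, 1.19 for Ahr and 1.47 for Gstm1.

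In lung epithelium-like cells of E14.5 (441 and 664 cells), the measured gene with the larger ratio, of 2 measured, was Cyp2s1, an epithelial P450 that acts on retinoids. It had 6 and 53 UMIs, 0.817 CPM (0.300 to 1.78) and 4.43 CPM (3.32 to 5.79), with a ratio of 5.42 (2.33 to 15.4). With the null mother 74.6% of its UMIs lay in these cells. With the heterozygous mother 6 of its 19 UMIs did, and 7 lay in mesenchyme-like cells. In single cells it was found in 6 of 441 and 33 of 664, and with the null mother the top 5 cells held 35.8% of its UMIs in the class. Over the 10 alternatives its ratio ran from 2.51 as a mean over cells to 6.44 in cells that reached no other list. The other measured gene, Cyp4f16, was at 5.18 and 6.35 CPM, so 1 of 2 genes was higher and 0 lower, where 4.98% and 1.51% of all measured genes were. The 12 epithelium markers, all detected, summed to 5187 and 9708 CPM within these cells, and their part in the Cyp2s1 level was not tested. With 50 UMIs over both libraries together, Cyp4f13 (2.32 and 3.59 CPM, ratio 1.55) also passed, making 2, where 5.53% of genes so measured were higher and 2.34% lower. In the E18.5 libraries 34 of 39 and 24 of 35 UMIs of Cyp2s1 came from 28 and 19 mesothelium-like cells, at 152 CPM (105 to 213) and 95.7 CPM (61.3 to 142).

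The P450 genes of E14.5 mesenchyme-like cells (2330 and 2113 cells) were at similar levels in both libraries. Together they were at 41.1 CPM (38.7 to 43.5) and 46.0 CPM (43.3 to 48.7), with a ratio of 1.12 (1.03 to 1.21). Of 5 genes measured, 0 were higher and 0 lower, where 3.24% and 1.82% of all measured genes were. Cyp2j6 was at 10.6 and 9.53 CPM, Cyp4f16 at 9.37 and 10.0 CPM, Cyp2d22 at 8.12 and 10.9 CPM, Cyp4f13 at 4.54 and 5.32 CPM and Cyp2u1 at 2.66 and 2.62 CPM. Cyp2d22 had the largest ratio of the 5, 1.34 (1.12 to 1.60). The class held 81.2% and 80.8% of the Cyp2d22 UMIs, against 60% and 47.2% of all UMIs. The level of Cyp2d22 was higher in the 74 and 19 mesothelium-like cells of E14.5, at 25.7 and 60.3 CPM. Those cells held 12.8% and 6.19% of its UMIs, against 2.98% and 0.653% of all UMIs. With 19 cells in the null mother library, the mesothelium-like class was too small to be compared between libraries. Cyp1b1, an oestrogen and retinoid oxidase, had 27 and 49 UMIs at E14.5, of which 25 and 45 were in mesenchyme-like cells, and 2 and 1 UMIs in the E18.5 libraries. Cyp2j9 had 31 and 49 UMIs in mesenchyme-like cells, below the minimum. Erythroid-like cells of E14.5 had 0 P450 UMIs with the heterozygous mother, which allows up to 3.83 CPM, and 1 with the null mother.

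Blood cell classes of the E18.5 libraries held low levels of the hepatocyte genes. In neutrophil-like cells 2 of 5 measured genes were higher with the null mother, where 4.27% of all measured genes were higher and 2.52% lower. In erythroid-like cells 4 of 4 were higher, where 17% of all measured genes were higher and 1.09% lower, with a median log2 ratio of 0.29 over all measured genes. Cyp2d26 was at 0.634 and 2.69 CPM in neutrophil-like cells and at 1.00 and 2.38 CPM in erythroid-like cells. Cyp2c68 was at 1.36 and 3.11 CPM, and at 1.03 and 2.50 CPM. The 12 hepatocyte markers moved with them, all 12 detected in both classes of both libraries. Their sum was 91.8 and 245 CPM in neutrophil-like cells and 91.5 and 231 CPM in erythroid-like cells, against 49050 and 44831 CPM in hepatocyte-like cells. The part of free or carried RNA in these values was not tested. The other 2 genes in erythroid-like cells were Cyp4f18 (2.11 and 3.17 CPM) and Cyp4f13 (1.39 and 2.19 CPM), with ratios of 1.504 (1.11 to 2.03) and 1.58 (1.10 to 2.29). Both calls ended under 6 of 10 alternatives. In neutrophil-like cells Cyp4f13 was at 6.92 and 6.10 CPM and Cyp4f16 at 2.48 and 3.71 CPM, with a ratio of 1.498 (1.14 to 1.99) that lay just under the fold. In B cell-like cells Cyp4f13 was at 4.63 and 6.79 CPM, and 0 of 2 measured genes passed, where 3.19% and 1.98% of all measured genes did. No P450 gene was measured in mesenchyme-like, macrophage-like or megakaryocyte-like cells of the E18.5 libraries. Macrophage-like cells there had 22 and 25 UMIs of Cyp4v3 and 26 and 33 of Cyp4f13, out of 1203476 and 3100088 UMIs of the class. For Cyp4v3, below the minimum, these counts were 18.3 and 8.06 CPM, with a ratio of 0.441 (0.239 to 0.821).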

How the data were processed

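Single cells labelled fetal lung were read from 1 matrix of UMI counts that the authors deposited as raw whole numbers, with 31053 genes, 43351 cells and 4 libraries. Per the submitters' processing notes, Cell Ranger 3.0.0, Seurat 4.3.0 and mm10 were used, with no order or settings given. The deposited totals per cell equalled the sums of counts in 100% of cells. No cell had fewer than 500 UMIs. Gene symbols and barcodes stood in files named the other way round, and were told apart by what they hold. Library totals ran from 47005276 to 118054232 UMIs. Libraries were told apart by the deposited cell table and grouped by the genotype, age and mother labels.

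The P450 genes and the gene lists were chosen with earlier results of these data known. Counts were summed per library and marker-gated class, divided by the class total and given as CPM with exact Poisson intervals. A share has an exact Clopper-Pearson interval. Ratios (null over heterozygous mother, within an age) have exact conditional intervals. Genes were measured where the library with the higher CPM held 50 UMIs or more, and called past 1.5-fold. A class needed 50 cells in both libraries. With 1 library per group there is no test and no p-value. A count of 0 allows up to 3 UMIs. The ratio script was tested on simulated data. Named genes are all members with at least 50 UMIs in a library, all members measured in a class, and the 3 highest and 3 lowest ratios of the partner lists in the class with the highest P450 level of each age; other genes named were chosen after their values were seen.

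Alternatives were 2 other scalings, means over cells, gates of 2 and 5 markers, cells of a single list, Leiden clusters, 3 cell filters, minimums of 10 and 200 UMIs, a fold of 2 and 1 added minimum. Positions and transcript overlap are from GENCODE M21, promoters from RefSeq, both on GRCm38. Python 3.11.15 with numpy 2.4.6, scipy 1.17.1, pandas 2.3.3, leidenalg 0.10.2, igraph 0.11.9 and matplotlib 3.10.9 was used.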

Additional observations from a re-analysis of the deposited data

Results flagged for a closer look

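Cyp4f18 had ratios on opposite sides of 1.5-fold in different cell classes. The ratio of null over heterozygous mother was 1.80 in E14.5 macrophage-like cells and 1.504 in erythroid-like cells of the libraries labelled E18.5, and 0.653 in basophil and mast cell-like cells of the latter. The difference between classes was not tested, since each group is 1 library. When cells past the 95th percentile of UMIs were left out, the macrophage-like ratio was 0.711. The erythroid-like ratio was 1.07 in cells that reached no other marker list.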

How the results depend on the processing

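The summed P450 ratio in hepatocyte-like cells, 0.988, stayed between 0.886 (median-of-ratios scaling) and 1.04 (cells of 1000 genes or more with less than 10% of UMIs mitochondrial). It was 0.932 in cells that reached no other list, 1.03 in Leiden clusters, 1.03 without the deepest cells (past the 95th percentile) and 0.938 in male cells. At a minimum of 10 UMIs, 34 P450 genes were measured there, 5 higher and 9 lower, where 13% of all genes so measured were higher and 5.27% lower. The 3 higher genes were 1 at a minimum of 200. In male cells Cyp3a44 (7 and 36 UMIs, ratio 1.98) and Cyp3a25 (11 and 42 UMIs, ratio 1.47) came under 50 UMIs. In cells of no other list they had 1 and 12 UMIs (ratio 4.55) and 3 and 13 UMIs (ratio 1.64), also under 50. Cyp3a11 stayed measured and past 1.5-fold in both settings. At a fold of 2 Cyp3a25 (ratio 1.73) did not pass. The 6 lower genes were 1 at a minimum of 200, 3 at a fold of 2, 2 in cells of no other list, 2 under the filter on genes and mitochondrial UMIs and 3 without the deepest cells. The count also falls where fewer genes reach the minimum.

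Over all cells of the E18.5 libraries the ratio of 2.62 was 2.39 without haemoglobin genes, 2.45 with median-of-ratios scaling, 2.28 as a mean over cells, 3.02 under the filter on genes and mitochondrial UMIs, 2.68 without the deepest cells and 2.45 in male cells. In male cells the E14.5 ratio of 1.21 was 1.08, that of E14.5 endothelium-like cells 1.17, that of E18.5 endothelium-like cells 1.56, that of B cell-like cells 1.19 and that of erythroid-like cells 1.38. The B cell-like ratio was 1.56 and the neutrophil-like ratio 1.23 under the filter on genes and mitochondrial UMIs. The erythroid-like ratio of 1.92 was 1.57 with median-of-ratios scaling and 2.55 as a mean over cells, and the basophil and mast cell-like ratio of 0.690 was 0.531 in cells of no other list. The E14.5 macrophage-like ratio of 1.78 turned to 0.978 without the deepest cells.

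At a minimum of 10 UMIs, 4 of 7 measured genes were higher in epithelium-like cells of E14.5 (10.8% of all genes so measured), 4 of 5 in endothelium-like (8.39%), 4 of 5 in macrophage-like (13.2%) and 4 of 12 in mesenchyme-like cells (6.63%). Among E18.5 classes these counts were 8 of 15 in neutrophil-like (8.14%), 4 of 9 in B cell-like (7.39%) and 9 of 11 in erythroid-like cells (21.8%). At 200 UMIs there were 0 in these classes. Other E18.5 classes also held lower genes at a minimum of 10 UMIs. Of 4 genes in macrophage-like cells 2 were higher and 2 lower (13.1% and 9.25% of all genes). Of 7 in endothelium-like cells 1 was higher and 1 lower (7.27% and 9.31%). The 1 gene of basophil and mast cell-like cells was lower (13.2% higher and 18.3% lower). At a fold of 2 the E14.5 endothelium-like class kept 1, the macrophage-like class 0, the basophil and mast cell-like class 0 and the erythroid-like class 2.

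Some counts went down because genes came under 50 UMIs while their ratios stayed past 1.5-fold. In male cells 0 genes were counted higher in the epithelium-like, endothelium-like and macrophage-like classes of E14.5 and in the neutrophil-like and erythroid-like classes, since all the genes called there came under 50 UMIs. The ratios in male cells were 4.72 for Cyp2s1, 1.89 for Cyp4b1, 7.10 and 2.69 for Cyp2d26 and Cyp2c68 in neutrophil-like cells, and 1.69 and 2.74 for both in erythroid-like cells. Those of erythroid-like Cyp4f18 (1.14) and Cyp4f13 (1.15) came under 1.5. In epithelium-like cells Cyp2s1 was not counted, leaving 0, in cells of no other list (ratio 6.44, 4 and 40 UMIs) or without the deepest cells (5.86, 4 and 43 UMIs), and 2 genes were higher with 50 UMIs over both libraries. Endothelium-like cells had 1 as a mean over cells and 1 in cells of no other list. The 4 of erythroid-like cells were 2 without haemoglobin genes, 2 with median-of-ratios scaling and 2 in Leiden clusters. They were 0 in cells of no other list, where Cyp2d26 and Cyp2c68 came under 50 UMIs at ratios of 2.80 and 2.47, and 0 under the filter on genes and mitochondrial UMIs, with 2.08 and 2.88. The 1 lower gene of basophil and mast cell-like cells was 0 with median-of-ratios scaling and 0 with a gate of 5 markers. Directions turned for Cyp4f16 in E14.5 endothelium-like cells (0.847 in male cells) and for Cyp4f18 in E14.5 macrophage-like cells (0.711 without the deepest cells, which left 0 higher, and 0.803 in male cells). Where ratios themselves differed, the cause was not tested.

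Each group is 1 library, so no interval covers differences between fetuses or litters. The libraries labelled E18.5 differ in sex, depth and the share of hepatocyte-like cells. Values within male cells and within classes stand beside the results, and other differences between single libraries cannot be told apart from the mother's genotype. No paired analysis was possible because each group has 1 library and no test was made.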

Other observations

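Enterocyte-like cells numbered 20 with the heterozygous mother in the libraries labelled E18.5, and 0 with the null mother. These 20 cells had 201 P450 UMIs, 751 CPM (651 to 862), and a median depth of 12026 UMIs. They held 50 of the 153 UMIs of Cyp2j6 in the library, at 187 CPM (139 to 246), 23 of the 179 UMIs of Cyp4f16, at 85.9 CPM (54.5 to 129), and 18 of the 188 UMIs of Cyp3a13, at 67.2 CPM (39.9 to 106). All 7 UMIs of Cyp2c65, both UMIs of Cyp2c66 and the only UMI of Cyp2c55 in that library were in these cells, and the library of the null mother had none of the 3 genes. Cyp2d26 (42 UMIs) and Cyp2c68 (31 UMIs), the leading genes of hepatocyte-like cells, were also found in them, and 14 of the 20 cells reached the minimum of another marker list.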
